A study of Homo sapiens with 12 samples.

Results

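DACH1, EYA1, EYA2, EYA3, EYA4, SIX2, SIX4 and SIX5 are 8 of the 20046 protein-coding genes of GENCODE release 44 and belong to the DACH, EYA and SIX-family groups, whose products act together in the retinal determination network. The genes were chosen by name. DACH1 had already been singled out in the study, so its place among other genes is given below as a description only. Every H2A.Z or acetylated H2A.Z (H2A.Zac) region that touched a gene body or the 10 kb to each side of it was assigned to that gene, which gave 30 H2A.Zac and 20 H2A.Z regions of the 158028 regions in the 6 lists.

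SIX-family proteins are homeodomain transcription factors that bind DNA, EYA proteins are coactivators and phosphatases that have no DNA-binding domain of their own and are recruited by the homeodomain factors, and DACH1 is a relative of the SKI oncoproteins that recruits corepressors and turns target genes of the network off. The network was described in the fly eye and is used again in mammalian eye, ear, kidney and muscle development, and DACH1 is often reduced in tumors. H2A.Z is a histone variant that marks promoters and enhancers, and the TIP60 complex, whose scaffold is EP400, exchanges it into nucleosomes and acetylates it.

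The regions come from ChIP-seq in K562, a human chronic myeloid leukemia cell line. In all cells endogenous EP400 carried a homozygous C-terminal FKBP12F36V tag, and the tagged protein was degraded with 500 nM dTAGV-1 for 24 h. The cells expressed EP400 from the AAVS1 locus, either wild type (WT) or without the SANT and HD domains through which it holds TRRAP (ΔTRRAP), and the 12 libraries are 2 inputs, 2 H2A.Z ChIPs and 2 H2A.Zac ChIPs per line. Each line is 1 clone, so the deletion and the clone cannot be told apart. The identity of the cells was not checked, since the lists hold no expression values.

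The authors pooled the replicates of each line and scored the difference between lines by a log10 likelihood ratio, here called the ratio. Changed regions have a ratio of 3 or more. A region is called gained where H2A.Z or H2A.Zac was higher in ΔTRRAP and lost where it was higher in WT. The ratio also grows with read depth and with the width of a region, and cannot be read as a fold change. Since counts and single replicates are missing from the lists, the depth is unknown, the replicates have no spread that can be shown, and no difference below was tested across samples.

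At DACH1, 7 H2A.Zac regions were called and all 7 were gained in ΔTRRAP. The partner genes showed a mixture of classes. Of the 23 H2A.Zac regions at the 7 partner genes, 8 were lost, 5 were gained and 10 were unchanged. Over the whole H2A.Zac list 26.3% of the regions were gained and 25.9% were lost. H2A.Z also lacked lost regions at DACH1. DACH1 had 2 gained, 1 unchanged and no lost H2A.Z regions, whereas the partner genes had 2 gained, 5 lost and 10 unchanged ones. The background for H2A.Z was 14.1% gained and 19.8% lost. The gained share of the changed H2A.Zac regions at the partner genes was 38.5% (Wilson 95% confidence interval, 17.71 to 64.48%), and it was 28.6% for H2A.Z (8.22 to 64.11%). These intervals cover counting error only, and neighboring regions are not independent.

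**Figure D1:**
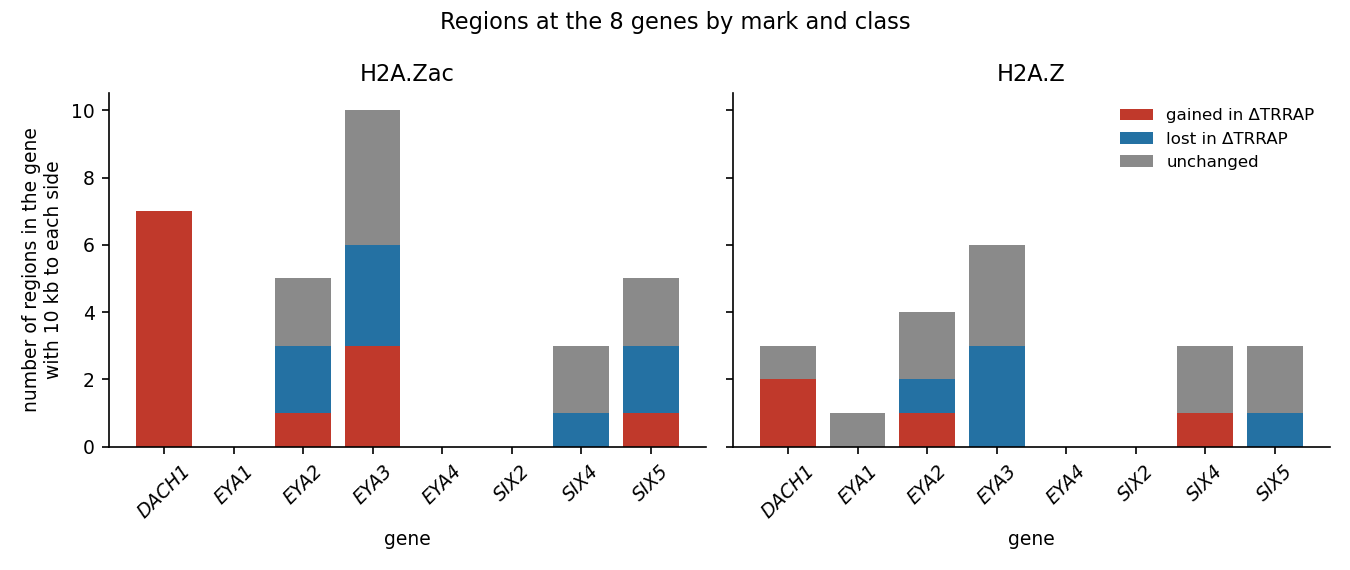
Number of H2A.Zac (left) and H2A.Z (right) regions over each gene with 10 kb to each side, stacked by class. DACH1 is the gene with 7 gained and no other H2A.Zac regions, while EYA3 has the most regions of both marks, and EYA4 and SIX2 have none.

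The sequences behind the DACH1 regions are shown here because they differ in base composition from place to place. They are given 5′ to 3′ on the minus strand, the strand of the gene, and capitals mark CpG dinucleotides. The first is the promoter from RefSeq (GRCh38.p14), which lies at chr13:71867175-71867454 and ends with 30 bases after the transcription start site (TSS). The second is the center of the gained H2A.Zac region in intron 3, farthest from the TSS, at chr13:71587994-71588293 of hg38.
DACH1 promoter: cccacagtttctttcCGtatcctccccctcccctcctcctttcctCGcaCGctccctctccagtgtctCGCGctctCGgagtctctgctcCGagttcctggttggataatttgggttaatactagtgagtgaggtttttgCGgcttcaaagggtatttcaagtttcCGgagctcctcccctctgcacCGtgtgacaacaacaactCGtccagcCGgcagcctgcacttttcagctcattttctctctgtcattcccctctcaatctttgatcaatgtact
DACH1 intron 3 H2A.Zac: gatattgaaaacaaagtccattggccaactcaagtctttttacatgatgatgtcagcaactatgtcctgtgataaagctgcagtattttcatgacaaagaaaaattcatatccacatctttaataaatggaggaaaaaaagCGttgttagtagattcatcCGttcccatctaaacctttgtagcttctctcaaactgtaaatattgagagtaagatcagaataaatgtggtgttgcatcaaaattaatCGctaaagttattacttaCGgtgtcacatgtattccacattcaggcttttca
The promoter stretch has 12 CpGs and a GC content of 52.1%, and the intron 3 stretch 4 CpGs and 34.0%.

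The gained H2A.Zac regions of DACH1 lay at the TSS, along introns 1 to 3 and upstream of the gene. DACH1 is transcribed from the minus strand of chromosome 13. The widest region, from 71863584 to 71868132, covered 4549 bp and held the whole of exon 1 with the canonical TSS, 2338 bp of intron 1 and 928 bp upstream, with a ratio of 53.7. Another 3 were in intron 1. The one from 71845923 to 71846966 had a width of 1044 bp and the highest ratio of the gene, 75.4, and overlapped the pseudogene RPL35AP31. The one from 71738531 to 71739276 was 746 bp wide with a ratio of 62.5, and the one from 71698606 to 71700678 was 2073 bp wide with a ratio of 65.9. No coding sequence was touched by any DACH1 H2A.Zac region outside exon 1. In intron 2, the region from 71678398 to 71680521 (2124 bp, ratio of 72.8) lay 3172 bp from the start of another DACH1 transcript. In intron 3, the region from 71587786 to 71588501 (716 bp) was the farthest from the canonical TSS, at 278.7 kb, and had the lowest ratio, 52.8. The 7th region, from 71876860 to 71877561 (702 bp, ratio of 67.6), lay 9.66 kb upstream and reached past the end of the 10-kb flank. Neighboring regions were between 8.7 and 106.6 kb apart.

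**Figure D2:**
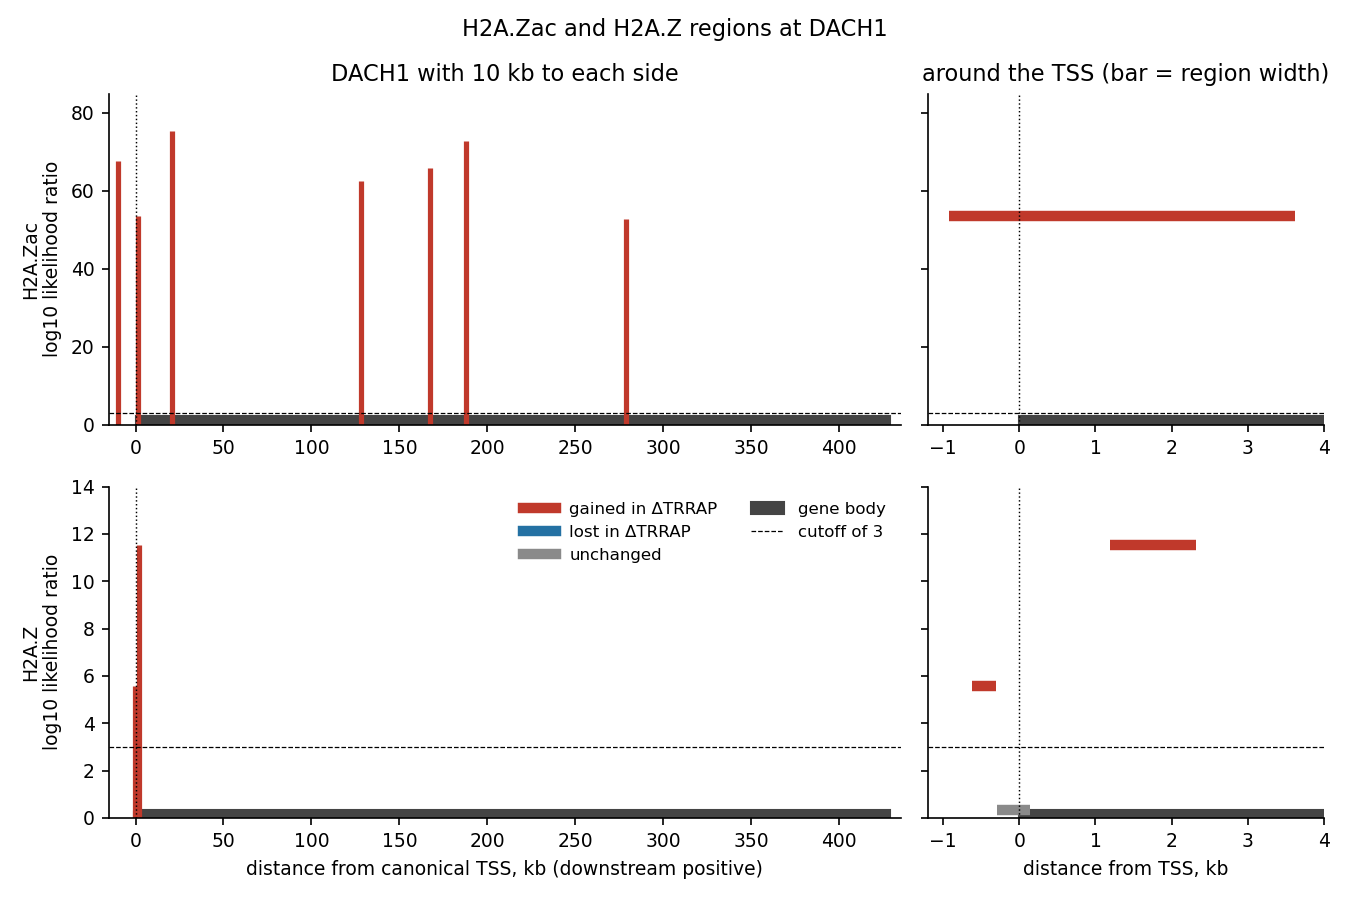
Log10 likelihood ratio of each H2A.Zac (top) and H2A.Z (bottom) region at DACH1 against its distance from the canonical TSS in kb, downstream positive, with the gene body as a dark bar and the cutoff of 3 as a dashed line; the right panels enlarge the TSS and draw each region at its width. The 7 H2A.Zac regions reach ratios of 52.8 to 75.4 as far as 278.7 kb into the gene, while the 3 H2A.Z regions stay at the TSS with ratios of at most 11.5.

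The ratios of DACH1 were among the highest of the gained H2A.Zac list. The list had a median ratio of 6.87, a 95th percentile of 26.0 and a 99th percentile of 51.2, and 233 of its 24844 regions (0.938%) reached the lowest DACH1 ratio. The DACH1 median was 65.9. The ratios were also high for the widths of the regions. Among 5002 gained regions within 20% of the width of the intron 3 region, the median ratio was 6.82 and 31 regions were as high or higher. For the upstream region 8 of 5012 such regions were as high, and for the intron 1 region with the highest ratio 12 of 4524. The TSS region was the least extreme for its width, with 11 of 167 regions as high. By contrast, the 13 changed H2A.Zac regions at the partner genes had ratios between 3.84 and 36.2 with a median of 5.44, all below the lowest at DACH1.

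**Figure D3:**
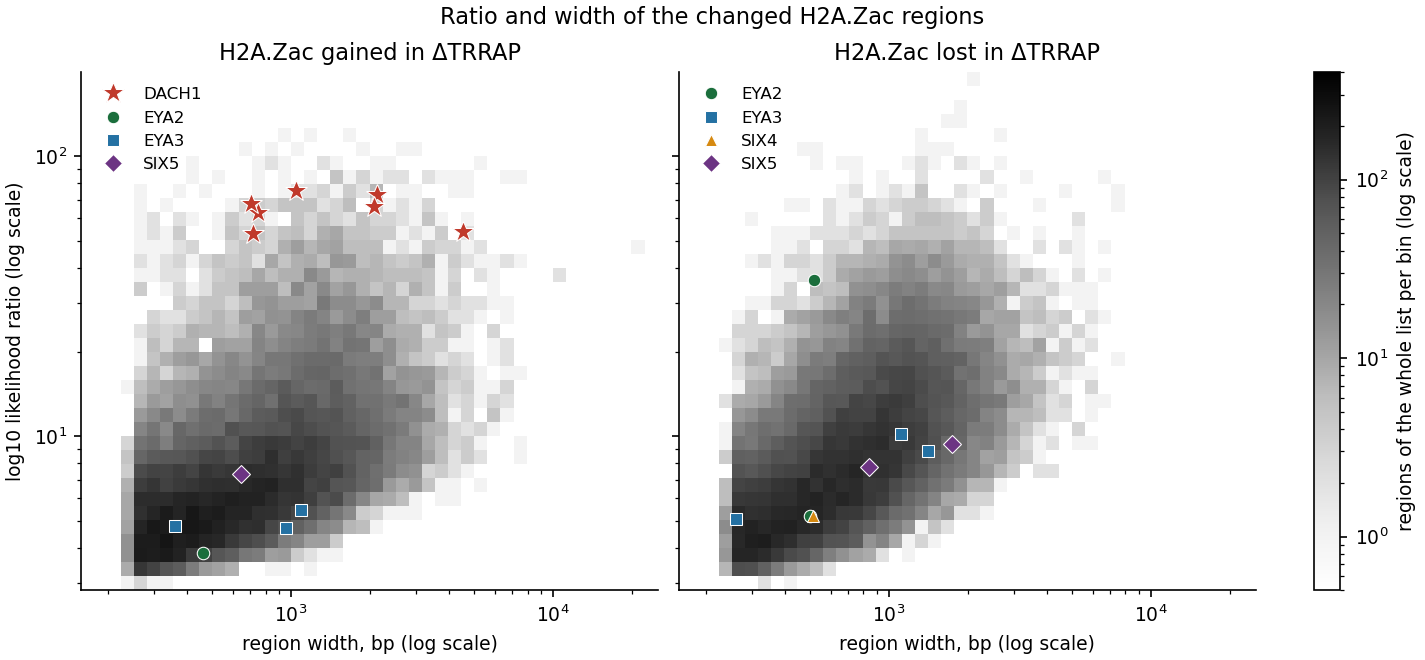
Ratio against width, both on log scales, for the changed H2A.Zac regions of the members (symbols) over the number of regions per bin in the whole gained (left) and lost (right) lists (gray). The 7 DACH1 regions sit at the upper edge of the gained list between 702 and 4549 bp, and the partner regions sit in its body except for 1 lost EYA2 region with a ratio of 36.2.

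H2A.Z was called at the start of DACH1 and nowhere else in the gene. A gained H2A.Z region from 71864884 to 71866009 (1126 bp, ratio of 11.5) covered the end of exon 1 and 1038 bp of intron 1, and another from 71867515 to 71867826 (312 bp, ratio of 5.58) lay 311 bp upstream of the TSS. The region between them, over the TSS itself, was unchanged (438 bp, ratio of 0.323). All 3 fell inside the large gained H2A.Zac region, of which they covered 1876 bp or 41.2%. The other 6 H2A.Zac regions of DACH1 had 0 bp of H2A.Z under them in any class, as did 39.0% of all gained H2A.Zac regions and 36.1% of all H2A.Zac regions. At the partner genes, 18 of 23 H2A.Zac regions had at least 25% of their length on H2A.Z, against 60.5% over the whole H2A.Zac list, and 15 of 17 H2A.Z regions lay on H2A.Zac, against 82.8% of all H2A.Z regions. An H2A.Z level below the calling threshold at the 6 DACH1 regions cannot be told apart from none.

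Composition set the TSS of DACH1 apart from its introns. The TSS H2A.Zac region had a GC content of 54.9% and 262 CpGs, or 57.6 per kb. The downstream H2A.Z region within it reached 66.7% and 87.0 CpGs per kb. The other 6 H2A.Zac regions ranged from 32.7% to 44.8% GC and from 7.0 to 32.6 CpGs per kb. The median of the gained H2A.Zac list was 48.6% GC and 18.7 CpGs per kb, so the introns of DACH1 lay on the AT-rich side of the list. 4 motifs were searched on both strands of the sequence. The E-box bound by MYC was searched as CACGTG. For GATA factors, which are abundant in erythroid cells, the core AGATAA was used. The site of the AP-1 dimer was searched as TGACTCA. The core of the MEF3 site, which is bound by homeodomain factors of this network, was searched as TCAGGTT. None of the 4 was found in the central 300 bp of the 7 H2A.Zac regions or in the promoter of DACH1. Over their full lengths, 4 of the 7 regions held the GATA core, 3 of them 1 time and the TSS region 3 times, and the TSS region held 1 E-box. Over full lengths, 36.35% of all gained H2A.Zac regions held the GATA core and 8.77% the E-box, but the median width of the list was 664 bp against 1044 bp for the DACH1 regions, so the shares do not rest on equal lengths. In the order E-box, GATA, AP-1 and MEF3, 3.22%, 16.71%, 8.07% and 3.65% of all gained H2A.Zac regions held them in the central 300 bp, and 7.26%, 10.33%, 4.95% and 3.37% of all 35116 RefSeq promoters held them.

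Most of the DACH1 sequence can be placed uniquely. Of the 31-base words of each region, 100% occur once in hg38 for the intron 3 and the upstream region, and at least 87.0% for another 4, the TSS region among them. The intron 1 region from 71738531 to 71739276 was lower, at 53.6%, against a median of 99.5% over the 526 gained H2A.Zac regions of chromosome 13. How repeated sequence moved its ratio was not tested.

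DACH1 was set beside other genes. Of 5359 protein-coding genes with at least 7 H2A.Zac regions, 10 (0.187%) had gained regions only and 6 had lost regions only. The 10 were ADAM19, BCHE, CNTNAP2, DACH1, MERTK, SASH1, TAF11L7, TAF11L8, TAF11L9 and TAF11L10, of which the TAF11L genes are neighboring copies whose 10-kb flanks share regions. Of 314 genes with at least 7 gained H2A.Zac regions, DACH1 was the only one with every gained region at or above 52.8. Both cutoffs, 7 regions and a ratio of 52.8, are the values of DACH1 itself. DACH1 therefore meets them by construction, and these counts are no evidence that it is unique. By the 6 counts of regions per mark and class, the genes most like DACH1 were RIPOR2, TAF11L10, SASH1 and KYNU, each with a summed difference of 2, and COLEC12, with 3, a value it shares with SHE, whose highest ratio is farther from that of DACH1. RIPOR2 had 7 gained and 1 unchanged H2A.Zac regions, with a lowest gained ratio of 9.37. SASH1 had 8 gained H2A.Zac regions with ratios from 16.0 to 58.0. TAF11L10 belongs to the multicopy family, and how uniquely reads map to its regions was not examined.

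The surroundings of DACH1 changed in the same direction. Within 1 Mb beyond the interval, 17 H2A.Zac regions were gained, 5 were unchanged and 0 were lost, and for H2A.Z 11 were gained, 4 unchanged and 0 lost. Upstream of the gene the 12 gained H2A.Zac regions had ratios of 5.59 to 125.73, with a median of 59.6. Downstream there were 5, with ratios of 11.89 to 49.3. The nearest lost H2A.Zac region was 2483.7 kb away on the downstream side and 1191.4 kb on the upstream side, which leaves a stretch of 4.1 Mb with 37 gained, 14 unchanged and no lost H2A.Zac regions. For H2A.Z the stretch without a lost region was 6.22 Mb long and held 19 gained and 38 unchanged regions. Thus 30 of the 37 gained H2A.Zac regions of the stretch lay outside the DACH1 interval, so gained regions were not confined to the gene. Of 19123 protein-coding genes with at least 10 changed H2A.Zac regions in their 1-Mb flanks, 54 (0.282%) had none lost. Many of the 54 are neighbors with shared flanks, so this is a share of genes and not a frequency of such stretches. The upstream flank holds MZT1, BORA, DIS3 and PIBF1 as its protein-coding genes, and the downstream flank holds none. Chromosome 13 as a whole had 59.5% of its changed H2A.Zac and 64.7% of its changed H2A.Z regions gained. As for the gene itself, the deletion and the clone cannot be told apart here, and the DNA copy number of the stretch in the lines was not analysed here.

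**Figure D4:**
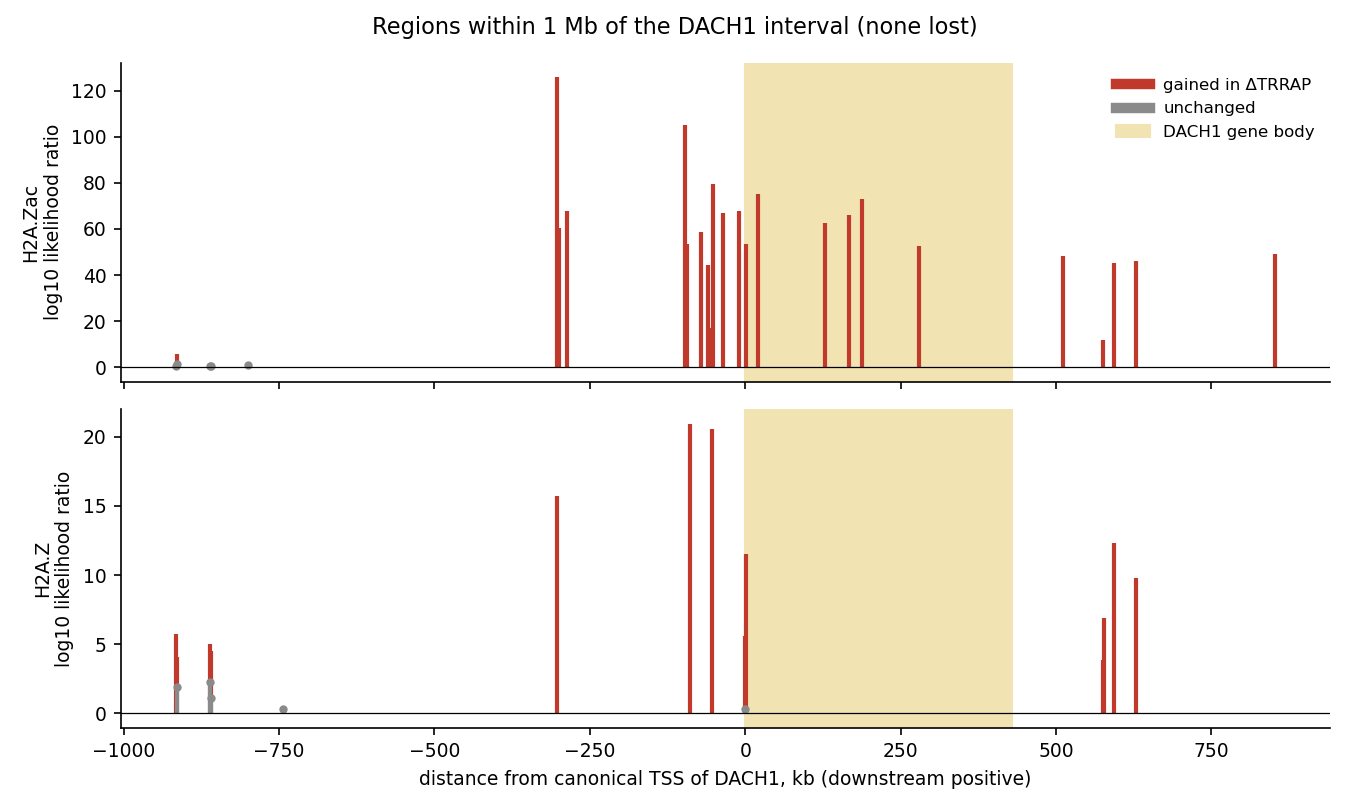
Ratio of every H2A.Zac (top) and H2A.Z (bottom) region within 1 Mb of the DACH1 interval against the distance in kb from the DACH1 TSS, downstream positive, with the gene body shaded. Gained regions stand on both sides of the gene, at up to 125.73 for H2A.Zac upstream of it, and no region of either mark was lost.

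The EYA genes encode the coactivators of the network. EYA2, on the plus strand of chromosome 20 from 46894624 to 47188844, changed at its 2 ends in opposite directions. Over its canonical TSS a gained H2A.Z region ran from 46894569 to 46895849 (1281 bp, ratio of 10.96), and no H2A.Zac region of any class was called there. In intron 10, H2A.Zac from 47150325 to 47150844 was lost (520 bp, ratio of 36.2) together with H2A.Z from 47149889 to 47150798 (910 bp, ratio of 13.7). For its width, 42 of 5118 lost H2A.Zac regions were as high. A lost H2A.Zac region of 499 bp over exon 14 had a ratio of 5.20 beside unchanged regions of both marks. At exon 2, where another EYA2 transcript starts, an unchanged H2A.Zac region of 1788 bp contained a gained one of 462 bp with a ratio of 3.84, close to the cutoff. EYA2 was the only member with H2A.Z but no H2A.Zac called at its canonical TSS.

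The RefSeq promoters (GRCh38.p14) of EYA3 and SIX4 are shown beside that of DACH1 because they lie in H2A.Zac regions called unchanged, where the DACH1 promoter lies in a gained one. A gained region overlaps the upstream end of the EYA3 stretch, and the lost region of SIX4 begins upstream of its stretch. The EYA3 promoter is the minus strand at chr1:28088581-28088860, with 25 CpGs. The SIX4 promoter is the minus strand at chr14:60724322-60724601, with 12 CpGs. Capitals mark CpG dinucleotides.
EYA3 promoter: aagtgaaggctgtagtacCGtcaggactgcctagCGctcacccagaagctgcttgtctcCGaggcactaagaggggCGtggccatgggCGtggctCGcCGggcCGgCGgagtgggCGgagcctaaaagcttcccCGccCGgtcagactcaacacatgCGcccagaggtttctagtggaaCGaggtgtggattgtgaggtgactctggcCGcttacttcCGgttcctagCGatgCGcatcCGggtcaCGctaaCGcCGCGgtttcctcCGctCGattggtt
SIX4 promoter: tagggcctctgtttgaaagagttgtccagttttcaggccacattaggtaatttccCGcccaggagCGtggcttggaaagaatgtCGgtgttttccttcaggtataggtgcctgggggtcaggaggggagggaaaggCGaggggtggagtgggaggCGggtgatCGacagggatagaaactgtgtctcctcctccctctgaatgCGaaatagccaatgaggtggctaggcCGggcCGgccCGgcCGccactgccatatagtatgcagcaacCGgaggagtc
The promoter table held 5 of the 8 genes, DACH1, EYA3, EYA4, SIX2 and SIX4. In its windows of 300 bases EYA4 had 39 CpGs and SIX2 29, against a median of 14 over all promoters, and both are genes without a called region.

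EYA3, on the minus strand of chromosome 1 from 27970344 to 28088637, had the most regions of the members, with 3 gained, 3 lost and 4 unchanged for H2A.Zac. Gained H2A.Zac was called at its start and lost H2A.Zac in its upstream flank. At the TSS, H2A.Zac was gained from 28087568 to 28088528 (ratio of 4.72) on the downstream side and from 28088800 to 28089161 (ratio of 4.77) on the upstream side, and the 416 bp over the TSS between them were unchanged. H2A.Z was unchanged under both. Farther upstream, H2A.Zac was lost from 28090810 to 28092217 (ratio of 8.85) and from 28094087 to 28095201 (ratio of 10.2). The H2A.Z regions within them were lost as well, with ratios of 4.46, 4.02 and 5.15, except for 1 unchanged region of 389 bp. In intron 1 a lost region of 260 bp had a ratio of 5.05, and in intron 16 a gained region of 1088 bp had a ratio of 5.44. With a cutoff of 5, both gained regions at the TSS drop out and 1 gained H2A.Zac region is left, and with a flank of 2 kb the lost regions fall to 1 for H2A.Zac and 0 for H2A.Z. All H2A.Zac ratios of EYA3 lay below the lowest H2A.Zac ratio of DACH1. The gained and unchanged H2A.Zac regions at the TSS overlapped each other, as did 55.7% of the gained H2A.Zac regions over the genome with unchanged ones, so they can be parts of 1 peak. Only 21.6% of the 31-base words of the unchanged region from 28089159 to 28089516 and 22.4% of those of the lost H2A.Z region from 28091840 to 28092128 occur once in hg38.

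EYA1 and EYA4 held almost nothing. EYA4, on chromosome 6 from 133240514 to 133532128, had no region of either mark, and EYA1 had a single unchanged H2A.Z region of 357 bp with a ratio of 0.213 in 394.6 kb of gene. None of the 31-base words of the EYA1 region occurs once in hg38 and their median is 1440 copies. SIX2, on chromosome 2 from 45005182 to 45009452, also had none. Of all protein-coding genes, 2898 (14.5%) had no region in the same interval. The lists show here that no peak was called, and nothing about signal below that.

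The SIX-family genes encode the DNA-binding factors. SIX4, on the minus strand of chromosome 14 from 60709539 to 60724351, kept most of its marks. Its start carried an unchanged H2A.Zac region of 2823 bp (ratio of 0.764) and an unchanged H2A.Z region of 2624 bp (ratio of 0.971). At the upstream edge H2A.Zac was lost over 515 bp with a ratio of 5.21, and in exon 1 H2A.Z was gained over 378 bp with a ratio of 3.70. These 2 calls lay at different positions, each with a ratio close to the cutoff. The gained H2A.Z lay on unchanged H2A.Zac, and all of its 378 bp were also in the unchanged H2A.Z region. The lost H2A.Zac overlapped H2A.Z over 263 bp, all of it unchanged. The remaining 2 regions, both unchanged, lay 9.8 and 9.92 kb upstream over the start of MNAT1.

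SIX5, on the minus strand of chromosome 19 from 45764785 to 45769252, lost H2A.Zac in its gene body and gained it upstream. H2A.Zac was lost from 45767043 to 45768792 (1750 bp, ratio of 9.41) over exon 1, intron 1 and exon 2, on an H2A.Z region of 1882 bp that was unchanged. It was gained from 45769637 to 45770283 (647 bp, ratio of 7.31), 385 bp upstream of the TSS. Of these 647 bp, 332 bp also lay in an H2A.Zac region called unchanged. The 587 bp over the TSS itself were unchanged. The lost H2A.Zac region is the widest changed region of either mark at the partner genes. A further lost pair, H2A.Zac with a ratio of 7.76 and H2A.Z with 8.98, lay 9.8 kb upstream over the start of DMPK. The regions at SIX5 also overlap DM1-AS and DMPK, so they cannot be given to SIX5 alone. Without the regions over starts of other protein-coding genes, 5 of 12 changed H2A.Zac regions at the partners were gained.

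**Figure D5:**
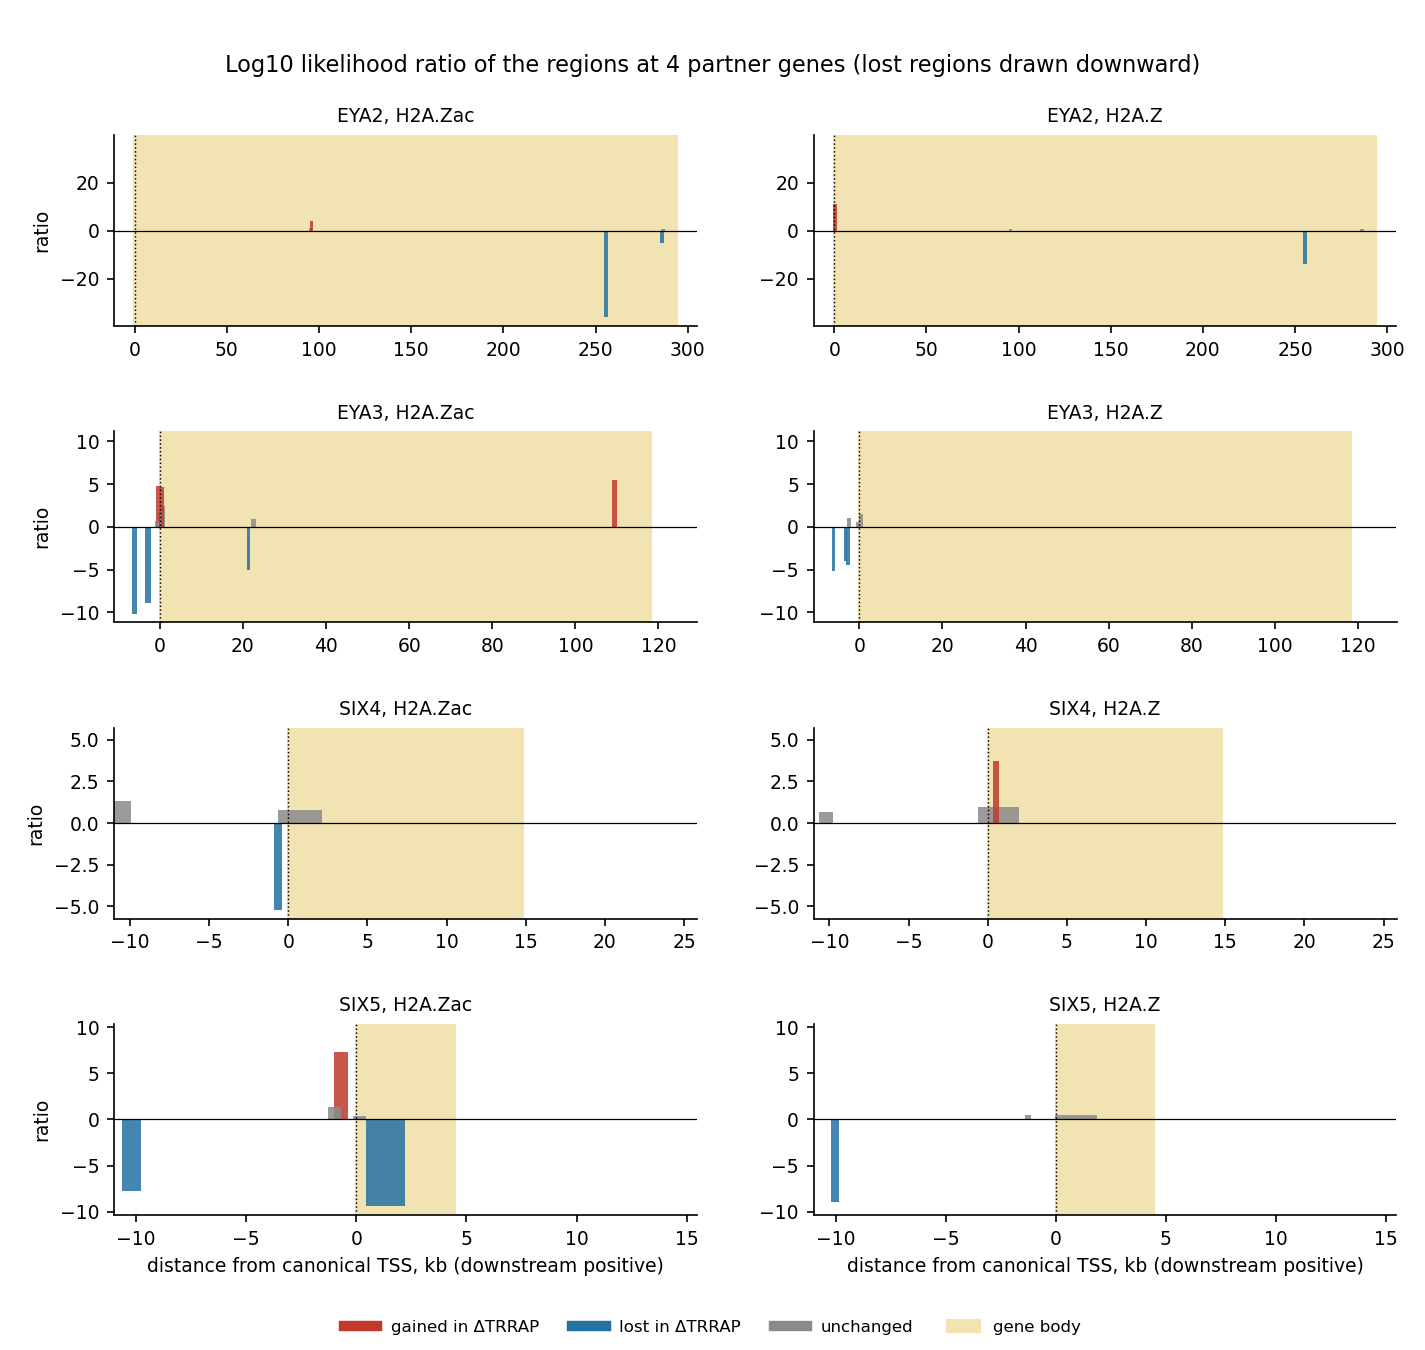
Ratio of each H2A.Zac (left) and H2A.Z (right) region at EYA2, EYA3, SIX4 and SIX5 against the distance in kb from the canonical TSS, downstream positive, with lost regions drawn downward and gene bodies shaded; narrow regions are drawn slightly wider to be visible. The largest ratio is the lost EYA2 intron 10 region at 36.2, and EYA3 shows gained H2A.Zac at its TSS with lost H2A.Zac upstream.

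A changed H2A.Zac region lay within 1 kb of the canonical TSS in 4 of the 8 genes, DACH1, EYA3, SIX4 and SIX5. It was gained at DACH1, EYA3 and SIX5, where 36.6% of all protein-coding genes had a gained one, and lost at SIX4 and SIX5, where 16.6% had a lost one. Both counts, 3 and 2 of 8, are near the background. H2A.Z was gained within 1 kb of the TSS at 3 of the 8 genes, DACH1, EYA2 and SIX4, where 13.9% of all protein-coding genes had a gained region, and lost at 0 of the 8, where 6.53% had a lost one.

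Around the partner genes, lost regions of both marks were called in every case, and EYA4 lay closest to the pattern of DACH1. Within 1 Mb beyond the EYA2 interval, 18 H2A.Zac regions were gained and 41 lost, and 1 of 38 changed H2A.Z regions was gained (2.63%). The gained share of 30.5% for H2A.Zac was near that of chromosome 20 as a whole, 25.6%, and the chromosome had 8.82% for H2A.Z. Another 38 H2A.Z regions there were unchanged, among them the nearest on either side of the EYA2 interval. Around SIX5, 27 H2A.Zac regions were gained and 104 lost, and 1 of 73 changed H2A.Z regions was gained (1.37%), where chromosome 19 had gained shares of 36.7% and 15.6%. Around EYA3 the counts were 52 gained and 90 lost for H2A.Zac and 10 gained and 64 lost for H2A.Z. The gained shares were 36.6% and 13.5%, where chromosome 1 had 48.1% and 32.7%. Around EYA4, which had no region, 36 H2A.Zac regions were gained and 6 lost, and 26 H2A.Z regions were gained and 2 lost. These gained shares of 85.7% for H2A.Zac and 92.9% for H2A.Z stood beside 55.7% and 55.4% for chromosome 6 as a whole. SIX2, SIX4 and EYA1 lay in mixed surroundings, with 42.3%, 39.1% and 47.2% of the changed H2A.Zac regions and 63.6%, 60.0% and 58.8% of the changed H2A.Z regions gained. In the same order, these shares rest on 26, 23 and 36 changed H2A.Zac regions and on only 11, 5 and 17 changed H2A.Z regions. Their chromosomes had gained shares of 52.1%, 52.9% and 55.4% for H2A.Zac and 46.0%, 44.9% and 47.6% for H2A.Z. Without EYA2 and SIX5, 3 of the 7 changed H2A.Zac regions at the partner genes were gained.

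Families related to the network were counted in the same way. SIX3 had 1 lost H2A.Zac region, while SIX6 and DACH2, the closest relative of DACH1, had no region of either mark. The 9 PAX genes, which encode paired-domain factors that act with the network, had 17 lost, 2 gained and 7 unchanged H2A.Zac regions, where 25.9% of all H2A.Zac regions were lost and 26.3% gained. PAX5 held 6 of the lost regions and PAX6 held 5. The single H2A.Zac region at PAX7 was lost with a ratio of 63.0, above the lowest at DACH1. At the TSS of PAX6 H2A.Zac was lost with a ratio of 15.5, and at PAX9 with 11.6 and 4.96. Thus 2 of 9 PAX genes had a lost H2A.Zac region at the TSS, near the 16.6% of all protein-coding genes, and 0 of 9 had a gained one. The 4 SKI family genes had 5 lost, 1 gained and 6 unchanged H2A.Zac regions, of which SKI held 3 lost ones with a ratio of up to 24.3. At their TSSs 0 of 4 had a changed H2A.Zac region, where 36.6% of all protein-coding genes had a gained and 16.6% a lost one, and SKIL had a gained H2A.Z region (4.47).

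Most of the corepressor genes had gained H2A.Zac at the TSS. Of 6 genes for corepressors or cofactors that bind DACH1, 5 had gained H2A.Zac at the TSS, where 36.6% of all genes do. These were TBL1XR1 (ratio of 10.5), HDAC3, a histone deacetylase (14.6 and 5.16), SIN3A, a scaffold of deacetylase complexes (6.90 and 9.49), NCOR1, a nuclear receptor corepressor (7.21), and SMAD4, a TGF-β signal transducer (6.08 and 4.04). The direction was not uniform, since 1 of the 6 had lost H2A.Zac at the TSS, beside 16.6% of all protein-coding genes. For H2A.Z, 1 of the 6 had a gained and 1 a lost region at the TSS. Of 9 genes reported as targets of the network, 1 had gained and 1 had lost H2A.Zac at its TSS, beside 36.6% and 16.6% of all protein-coding genes. For H2A.Z, 2 had a gained and 1 a lost region at the TSS, beside 13.9% and 6.53%. EZR, which links membrane and actin, gained H2A.Zac (14.4) and H2A.Z (8.72 and 4.34), and CCND1, the cyclin D1 gene, lost H2A.Zac (38.3) and H2A.Z (11.2). The study had already shown the loss at CCND1 as an example from these data, so it is not an independent finding here. CXCL8, a chemokine gene, gained H2A.Z at its TSS (7.68) without an H2A.Zac region there. The ratios named at these TSSs were all below the lowest H2A.Zac ratio at DACH1.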

How the data were processed

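ChIP-seq of H2A.Z and H2A.Zac was carried out in the WT and ΔTRRAP K562 lines, with 2 replicates per mark and line. Reads were aligned to hg38, and Bowtie2 2.4.5, MACS2 2.2.7.1, bedtools 2.30.0 and deepTools 3.5.1 are named in the submitters' processing notes. The authors merged replicates, compared the lines with MACS2 bdgdiff and kept those with at least 25% of their length in peaks that passed an IDR cutoff of 0.05. The score in the deposited lists is the log10 likelihood ratio between the lines as the authors computed it, at least 3 in the changed lists and under 3 in the unchanged lists. The merging and filters are already in the lists, the depth is unknown, and no replicate can be examined. Classes are assigned along the pileup, so 1 peak can give several regions.

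Regions were intersected with gene bodies of GENCODE release 44 (the study used an earlier release) extended by 10 kb to each side, and a region was counted when it overlapped by at least 1 bp. The TSS window was 1 kb to each side of the canonical TSS. Overlap between marks required 25% of a region's length. Composition, motifs and 31-base words came from the hg38 sequence, and promoters from RefSeq (GRCh38.p14). Wilson 95% intervals came from scipy 1.17.1, with Python 3.11.15, numpy 2.4.6, pandas 2.3.3 and matplotlib 3.10.9. Counts were checked against bedtools 2.31.1, and the calculations were tested on simulated data. All 8 members are named. Of 5 lists of relatives, partners and targets, the 12 genes with the highest ratio of a changed region within 1 kb of the TSS were to be named, of which some are not reported here, besides genes without regions that complete a list, and so are the 5 genes with region counts most like DACH1. The genes that complete a count, such as the 10 with gained regions only, PAX5, PAX7, SKI, SKIL, SHE and the neighbors of DACH1, SIX4 and SIX5, were named after their values were seen. The members and lists were chosen with earlier results of these data known. Alternatives were other flanks, cutoffs, widths, overlaps and TSS windows, merged regions and base pairs. The measures of width, flanks and the stretch without lost regions were chosen after seeing the data. Expression, inputs, EP400 occupancy and signal tracks were not analysed here.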

Additional observations from a re-analysis of the deposited data

How the results depend on the processing

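All changed H2A.Zac regions at DACH1 were gained under every flank, cutoff, width, merging and overlap tried, with 6 to 9 of them in place of 7. The count of changed H2A.Z regions at DACH1 fell from 2 to 1 with a flank of 0 kb, with a cutoff of 10 and with regions of at least 500 bp. The gained share of changed H2A.Zac regions at the partner genes was 0% with a cutoff of 10, where 2 changed regions were left and 0 of them were gained, and between 20 and 50% otherwise. The gained share of changed H2A.Z regions at the partner genes was 66.7% (2 of 3) with flanks of 0 and 2 kb, and between 12.0 and 50% otherwise. Of 112 counts per gene, class and setting, 42 moved by more than 1.5 times, 3 of them at DACH1 and the others at EYA2, EYA3, SIX4 and SIX5. Taking the TSS of any transcript added EYA2 to the 4 genes with a changed H2A.Zac region at a start. Leaving out regions over starts of other genes was chosen after seeing the data and gave 41.7% for H2A.Zac and 33.3% for H2A.Z. No replicate could be left out, because the lists come from merged replicates. No paired analysis was possible because the lists hold no value per replicate. The depth is unknown, and a gene without a region may carry signal below the calling threshold. The effect of repeated sequence at EYA1, EYA3 and DACH1 was not tested.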
